A study of Mus musculus with 9 samples.

Results

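The 32 genes described here are targets of YAP, chosen by name from target lists of several tissues and of the heart, out of 38293 gene identifiers in the count table. They were sorted by the difference between mutant and control ventricles, so that difference is given below as a description only. Of the 30 genes with enough counts to be fitted, 9 rose in the mutant, 4 fell and 17 did not pass an adjusted p of 0.05, and the other 2, Foxf2 and Ptgs2, were too low to be fitted. The 9 that rose were Sytl2, Nt5e, Ankrd1, Ccn1, Ccn2, Igfbp3, F3, Myof and Fstl1, and the 4 that fell were Mtss1, Arhgef17, Fgd4 and Rbms3. The falls of Fgd4 and Rbms3 did not pass in 6 and 7 of 9 fits with 1 library dropped, and the rise of Myof did not in 5. Over all 15318 genes fitted, 8.25% rose and 8.03% fell at that threshold. Some of the members had been shown by the study as YAP targets in these samples, so the counts are not independent evidence of a direction.

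Ventricular RNA was sequenced at postnatal day 7 from 5 control mice, Arid1a f/f, and from 4 knockout mice, aMHC-Cre;Arid1a f/f (cKO). Both groups carry floxed Arid1a, the gene of a SWI/SNF subunit that binds DNA (SWI/SNF moves nucleosomes), on a C57B/6J background, and the controls were littermates without Cre, so the effect of the Cre transgene itself and that of the deletion cannot be told apart. The αMHC promoter drives Cre in cardiomyocytes, whereas the RNA came from the whole ventricle with its fibroblasts, vessels and other cells. Fewer cells of a type and less RNA per cell therefore cannot be told apart in these values. Library totals ran from 31011055 to 40073801 counts. Arid1a itself fell to 106.4 ± 5.44 CPM (counts scaled by library total; SD, n = 4) from 139.8 ± 8.84 (n = 5), with no overlap between the groups. The libraries also form a pair of sets that cut across genotype. One set, called Rps3a3-low, comprised cKO replicates 1 to 3 with control replicates 1 and 2, in which the Rps3a3 transcript lay at 0.345 to 0.521 CPM. In the other, Rps3a3-high, made up of cKO replicate 4 with control replicates 3 to 5, it lay at 99.7 to 112.3 CPM.

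YAP and its paralog TAZ (encoded by Wwtr1) are transcriptional coactivators that reach DNA through the TEAD factors. When the Hippo kinases are active, YAP and TAZ are kept out of the nucleus, and loss of cell contact or mechanical load lets them enter it. In the heart, YAP is known for driving cardiomyocyte growth and division before and shortly after birth. Its targets include secreted matricellular proteins, surface receptors, regulators of the actin cytoskeleton and several inhibitors of YAP itself, which form a negative feedback. The libraries compare hearts with and without the cardiomyocyte Arid1a deletion.

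TEAD factors bind the core letters CATTCC, or GGAATG on the other strand, and the RefSeq promoter table (GRCm38.p6, the assembly also called mm10) holds 300 bases around the start of a transcript, 250 before and 50 after. It held 23 of the 32 members. Not in it were Ccn2, Ccdc80, Fjx1, Nuak2, Arhgef17, Dock5, Asap1, Mtss1 and Sytl2. The pair of letter strings are reverse complements of each other. CATTCC or GGAATG, searched on both strands, occurred near 10 of the 23 genes. Of the members' 27 promoters 37.0% held a match, against 14.7% of all 32851 promoters in the table. Matches lay near 2 of the 7 members with an entry that rose, Ccn1 and Ankrd1, near 1 of the 2 that fell, Fgd4, whose match lay after the start, and near 7 of the 14 that did not pass or were not fitted. The windows below show each match before a start, 30 bases read 5′ to 3′ on the strand of the gene, because they let the letters around a match be compared between members that rose and members that did not. Capitals mark the matched letters, and a negative position counts the bases from the start of the transcript to the first matched letter.
Ccn1 (chr3:145650071-145650100, minus strand, position -103): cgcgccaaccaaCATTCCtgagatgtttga
Axl (chr7:25788949-25788978, minus strand, position -233): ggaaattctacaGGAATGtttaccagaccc
Crim1 (chr17:78200157-78200186, plus strand, position -79): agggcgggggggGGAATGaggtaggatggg
Ankrd1 (chr19:36120037-36120066, minus strand, position -210): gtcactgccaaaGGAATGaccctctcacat
Ankrd1 (chr19:36119950-36119979, minus strand, position -123): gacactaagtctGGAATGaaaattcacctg
Amotl2 (chr9:102717727-102717756, plus strand, position -65): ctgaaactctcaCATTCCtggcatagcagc
Ptpn14 (chr1:189728110-189728139, plus strand, position -146): cctccccggacgCATTCCtggcccgcccag
Ajuba (chr14:54577830-54577859, minus strand, position -186): cgttgatggataCATTCCacagtgcccctc
Ajuba (chr14:54577808-54577837, minus strand, position -164): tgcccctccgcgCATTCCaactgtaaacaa
Flna (chrX:74246663-74246692, minus strand, position -146): ggcgttgtggggCATTCCaacgggaggggc
Anxa1 (chr19:20390890-20390919, minus strand, position -236): actgcactgaacCATTCCtgtgaggaataa
The 3 matches of the members that rose are those of Ccn1 and Ankrd1, and the latter gene holds a pair of them, at positions -210 and -123. Ajuba, which did not pass, also holds a pair, at -186 and -164. The windows of Ankrd1, Amotl2 and Anxa1, 4 of the 11, lie wholly within exons that GENCODE M21 annotates for the same gene, upstream of the RefSeq start, and the other windows hold no annotated exon. A match is a description of letters and not a binding site.

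The full 250 bases before the start are given for Ccn1, a member that rose, and for Ajuba, one that did not pass. Both stretches are free of annotated exons, and the capitals mark the same letters.
Ccn1 (chr3:145649986-145650235, minus strand): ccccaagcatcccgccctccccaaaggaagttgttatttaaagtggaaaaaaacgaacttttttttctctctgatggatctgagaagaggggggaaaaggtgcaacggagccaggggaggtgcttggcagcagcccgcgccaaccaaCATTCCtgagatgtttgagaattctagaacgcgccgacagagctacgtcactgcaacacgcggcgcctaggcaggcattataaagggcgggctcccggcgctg
Ajuba (chr14:54577662-54577911, minus strand): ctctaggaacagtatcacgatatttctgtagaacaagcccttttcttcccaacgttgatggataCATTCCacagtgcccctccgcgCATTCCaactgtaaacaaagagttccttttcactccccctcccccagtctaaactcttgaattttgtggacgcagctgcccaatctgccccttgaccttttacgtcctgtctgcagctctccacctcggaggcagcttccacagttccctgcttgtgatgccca

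Of the secreted and matrix proteins 4 of 7 rose and none fell, with a median log2 fold change of 0.34. For this and every role or list below, the shares over all genes fitted were 8.25% risen and 8.03% fallen. Ccn1 (ENSMUSG00000028195, GRCm38 chromosome 3, 145646976 to 145649981) and Ccn2 (ENSMUSG00000019997, GRCm38 chromosome 10, 24595442 to 24598683), also known as Cyr61 and Ctgf, encode matricellular proteins that bind integrins and are the most used readouts of YAP activity. For Ccn1 the 5 controls, in replicate order, held 44.9, 27.1, 41.5, 28.9 and 33.5 CPM, and the 4 cKO libraries held 57.0, 58.4, 75.2 and 56.2 CPM. Every cKO library lay above every control library, and cKO replicate 3 stood well above the other cKO libraries. The mean went from 35.2 ± 7.79 (SD, n = 5) to 61.7 ± 9.04 CPM (n = 4), a log2 fold change of 0.81 (SE 0.15). Ccn2 stood at 116.5, 79.9, 121.5, 90.7 and 121.0 CPM in the controls against 173.4, 152.8, 191.1 and 188.8 CPM in cKO, a log2 fold change of 0.74 (SE 0.13). These groups did not overlap either, and control replicates 2 and 4 were the lowest controls for both genes. An antisense transcript, Gm15270, overlaps Ccn2 at a mean of 2.59 CPM, against 137.3 for Ccn2, and the strand setting of the counting is not given in the sources used here.

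Igfbp3 (ENSMUSG00000020427, GRCm38 chromosome 11, 7206086 to 7213923) encodes a carrier of insulin-like growth factors. The controls held 29.3, 20.2, 22.5, 21.3 and 25.8 CPM and the cKO libraries 38.5, 38.7, 33.1 and 31.1 CPM, a log2 fold change of 0.57 (SE 0.11). The lowest cKO library, replicate 4, lay just above the highest control, replicate 1. Fstl1 (ENSMUSG00000022816, GRCm38 chromosome 16, 37776873 to 37836514), which encodes a secreted follistatin-like glycoprotein, was among the most abundant members. Its values were 751.8, 733.9, 751.6, 824.3 and 772.4 CPM in the controls and 942.1, 912.0, 936.9 and 1084 CPM in cKO, a log2 fold change of 0.34 (SE 0.066). The rise was the smallest of the 9, the groups did not overlap, and the controls differed little, with a coefficient of variation (CV) of 4.55%.

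The other 3 secreted proteins did not pass. Tgfb2, a ligand of the TGF-β receptors, stood at 26.0, 27.0, 32.7, 30.9 and 36.0 CPM in the controls and 36.1, 30.7, 30.8 and 42.1 CPM in the cKO libraries, and its log2 fold change was 0.20 (SE 0.12) with a 95% interval, here and below not adjusted for the number of genes, of -0.061 to 0.45. The values of cKO replicates 2 and 3 lay within the range of the controls. Ccdc80, a matrix protein, had 0.14 (SE 0.072) with an interval of -0.021 to 0.29, at 124.4 ± 6.21 CPM in the controls. Fjx1, the mammalian relative of the fly gene four-jointed, was low, at 1.95 ± 0.429 CPM in the controls and 1.94 ± 0.186 in cKO, and its interval of -0.44 to 0.43 was the widest of the 30.

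Among receptors and surface proteins 2 of 6 rose and none fell, with a median of 0.05. Nt5e (ENSMUSG00000032420, GRCm38 chromosome 9, 88327197 to 88372092) encodes the surface enzyme that turns AMP into adenosine. The 5 controls held 17.1, 15.1, 19.9, 19.7 and 18.5 CPM and the 4 cKO libraries 49.6, 48.2, 50.7 and 54.6 CPM. The cKO values were close to each other and lay far above every control, at a log2 fold change of 1.49 (SE 0.086), or 2.81-fold. F3 (ENSMUSG00000028128, GRCm38 chromosome 3, 121723537 to 121735048) encodes tissue factor, the receptor that starts blood clotting. Control values were 18.1, 16.8, 17.3, 15.8 and 17.9 CPM and cKO values 27.6, 21.2, 23.9 and 20.9 CPM, a log2 fold change of 0.45 (SE 0.095). The groups did not overlap, and the spread was larger in cKO than in control, with a CV of 13.4% against 5.32%.

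Axl, a receptor tyrosine kinase and a much used YAP target in tumour cells, lay just outside the threshold. Control values were 150.6, 165.5, 149.9, 147.0 and 151.9 CPM, against 148.5, 130.6, 132.3 and 129.1 CPM in cKO. Its log2 fold change was -0.18 (SE 0.061), with an interval of -0.31 to -0.046 and an adjusted p of 0.0669 by the quasi-likelihood test, and 3 of the 4 cKO libraries lay under every control. Rbms3, described below, lay just inside, with an adjusted p of 0.0490. Axl passed without cKO replicate 1, at -0.23 with an adjusted p of 0.0246, and by DESeq2, at -0.18 with an adjusted p of 0.0316. Tgfbr2, a receptor for TGF-β ligands, had -0.11 (SE 0.059) with an interval of -0.24 to 0.023, at 113.3 ± 3.45 CPM in the controls. Crim1, a membrane protein that binds BMPs, had 0.017 (SE 0.10) with an interval of -0.21 to 0.24, and it shares its locus with Fez2 on the opposite strand, which was higher, at a mean of 78.5 CPM against 36.2. Lhfp had 0.087 (SE 0.066) with an interval of -0.056 to 0.23.

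**Figure D1:**
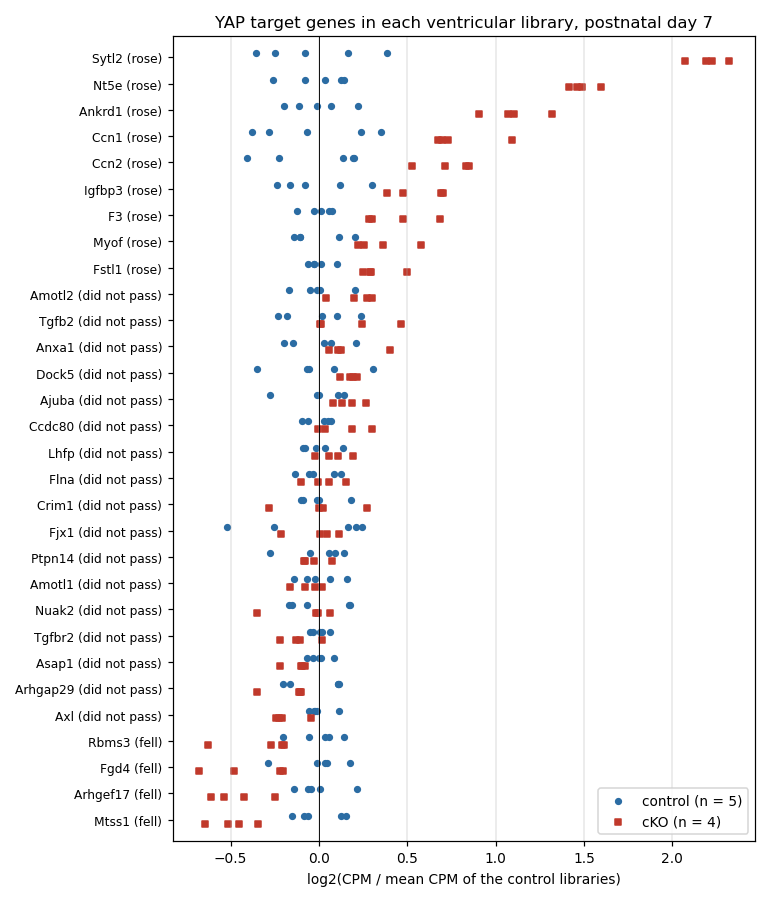
Each row is 1 of the 30 fitted members, and each point is a library's CPM over the mean of the control libraries on a log2 scale (controls in blue circles, n = 5, and cKO in red squares, n = 4). The rows are ordered by log2 fold change, from Sytl2 at 2.21 to Mtss1 at -0.49, and in the 17 middle rows, Asap1 apart, the ranges of the groups overlap.

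Of the nuclear and RNA-binding members 1 rose, 1 fell and Foxf2 was too low to be fitted. Ankrd1 (ENSMUSG00000024803, GRCm38 chromosome 19, 36111961 to 36120099) encodes the cardiac ankyrin repeat protein, which binds titin in the sarcomere, enters the nucleus and is raised by load on the heart. Its counts came to 1117, 951.6, 1005, 837.9 and 888.4 CPM in the controls and to 1796, 2014, 2062 and 2394 CPM in cKO, a log2 fold change of 1.11 (SE 0.097). The lowest cKO library lay far above the highest control. Ankrd1 was also the most abundant member, and its level per length went from 332.6 ± 37.5 to 716.1 ± 85.5 RPKM (here CPM per kilobase of exon).

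Rbms3 (ENSMUSG00000039607, GRCm38 chromosome 9, 116572746 to 117629913) encodes an RNA-binding protein. The controls held 44.4, 52.5, 49.3, 56.5 and 53.3 CPM, and cKO held 44.6, 33.2, 42.5 and 44.3 CPM, a log2 fold change of -0.32 (SE 0.099). The groups overlapped, since control replicate 1 lay under cKO replicate 1, and cKO replicate 2 was well under the other cKO libraries. Of the 9 fits that each dropped a library, Rbms3 passed only in those without control replicate 1 or cKO replicate 1. In the other 7 fits it ranged from -0.35 to -0.23, at adjusted p of 0.0581 to 0.107, and the smallest change came with cKO replicate 2 dropped. It also did not pass with upper-quartile scaling, at -0.30 (adjusted p = 0.0558), or with the replicate number as a block, at -0.30 (adjusted p = 0.115). An antisense transcript, Gm17396, overlaps it at a mean of 1.85 CPM against 46.7. Foxf2, a forkhead factor, was at 0 to 0.157 CPM, 0 to 5 counts per library.

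None of the 5 Hippo pathway regulators among the targets passed, and their median was -0.029. Most of all genes fitted did not pass either, since 8.25% rose and 8.03% fell. Amotl1 and Amotl2, angiomotin-like proteins that bind YAP and keep it at junctions, were both well expressed. Amotl2 stood at 99.6, 85.7, 86.7, 76.8 and 83.5 CPM in the controls and 99.3, 106.4, 104.3 and 89.0 CPM in cKO, with a log2 fold change of 0.21 (SE 0.081) and an interval of 0.031 to 0.38. Control replicate 1 lay among the cKO libraries, and without it Amotl2 passed, at 0.26 with an adjusted p of 0.0307. Amotl1 had -0.061 (SE 0.069) with an interval of -0.21 to 0.09, at 137.1 ± 11.2 CPM in the controls.

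Ajuba, a LIM protein that restrains the LATS kinases, had control values of 23.8, 19.7, 26.3, 23.7 and 25.7 CPM and cKO values of 28.7, 26.1, 27.2 and 25.2 CPM, with 0.17 (SE 0.089) and an interval of -0.027 to 0.36. Control replicates 3 and 5 lay within the range of the cKO libraries. Ptpn14, a phosphatase that binds YAP, had -0.029 (SE 0.086) with an interval of -0.22 to 0.16, at 54.6 ± 6.05 CPM in the controls. Nuak2, a kinase of the AMPK-related family, had -0.066 (SE 0.13) with an interval of -0.36 to 0.22, at 5.83 ± 0.698 CPM in the controls.

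The regulators of small GTPases and of actin held 3 of the 4 falls: 3 of 7 fell, none rose, and the median was -0.17. Mtss1 (ENSMUSG00000022353, GRCm38 chromosome 15, 58941234 to 59082005) encodes a protein that bends membranes and binds actin. Control libraries held 188.4, 192.3, 165.7, 155.5 and 163.2 CPM and cKO libraries 136.0, 121.1, 126.4 and 110.5 CPM, a log2 fold change of -0.49 (SE 0.082). Every cKO library lay under every control, and control replicates 1 and 2 were the highest of all. Arhgef17 (ENSMUSG00000032875, GRCm38 chromosome 7, 100869752 to 100932107) encodes an exchange factor that activates small GTPases. Its values were 108.7, 94.3, 89.9, 85.1 and 91.0 CPM in the controls and 61.5, 79.0, 64.6 and 70.0 CPM in cKO, a log2 fold change of -0.45 (SE 0.09), again without overlap.

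Fgd4 (ENSMUSG00000022788, GRCm38 chromosome 16, 16416917 to 16600549) encodes an exchange factor for Cdc42. Control values were 35.4, 44.3, 44.7, 48.9 and 42.9 CPM and cKO values 37.5, 27.1, 37.1 and 31.04 CPM, a log2 fold change of -0.38 (SE 0.11). The groups overlapped, since control replicate 1 lay under cKO replicates 1 and 3. Fgd4 passed in 3 of the 9 fits with a library dropped, those lacking control replicate 1 or cKO replicate 1 or 3. In the other 6 it ranged from -0.39 to -0.30, at adjusted p of 0.0653 to 0.0996, while Mtss1 and Arhgef17 passed in all 9. With the replicate number as a block Fgd4 did not pass, at -0.39 (adjusted p = 0.105). No member of this or another class that fell reached a fold of 1.5.

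The other 4 members of this class did not pass. Flna, which encodes the actin crosslinker filamin A, was measured at 630.4 ± 46.3 CPM in the controls and 643.1 ± 48.1 in cKO, with 0.029 (SE 0.073) and an interval of -0.13 to 0.19. Asap1, which switches off Arf, stood at 49.7, 48.6, 53.9, 50.8 and 51.3 CPM in the controls and 48.1, 43.6, 47.5 and 47.6 CPM in cKO, with -0.12 (SE 0.061) and an interval of -0.26 to 0.0094. Its groups did not overlap although it did not pass. Arhgap29, which switches off a small GTPase, had -0.17 (SE 0.087) with an interval of -0.36 to 0.025, and its controls stood at 173.7, 169.3, 210.8, 209.7 and 210.2 CPM and its cKO libraries at 181.3, 152.7, 180.5 and 180.0 CPM. Control replicates 1 and 2 lay under all cKO libraries except replicate 2, and control replicates 3 to 5 above all of them. Dock5, an exchange factor for Rac, had 0.18 (SE 0.12) with an interval of -0.09 to 0.44, at 9.40 ± 1.56 CPM in the controls.

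Sytl2 (ENSMUSG00000030616, GRCm38 chromosome 7, 90302252 to 90410719) changed by the most of all members. It encodes a synaptotagmin-like effector of Rab proteins that docks vesicles at the plasma membrane. The 5 controls held 8.88, 9.56, 10.7, 14.8 and 12.7 CPM and the 4 cKO libraries 47.7, 53.0, 56.6 and 51.8 CPM, a log2 fold change of 2.21 (SE 0.13), or 4.62-fold. The lowest cKO library held more than 3 times the highest control. Myof (ENSMUSG00000048612, GRCm38 chromosome 19, 37899036 to 38043577) encodes myoferlin, a ferlin of membrane repair. Its values were 18.1, 18.6, 18.6, 23.1 and 21.7 CPM in the controls and 23.3, 25.7, 23.9 and 29.8 CPM in cKO, a log2 fold change of 0.36 (SE 0.10). The groups barely missed each other, with control replicate 4 just under cKO replicate 1, and Myof passed in 4 of the 9 fits with a library dropped. It did not pass in those lacking control replicate 1, 2 or 3 or cKO replicate 2 or 4, at 0.28 to 0.36 and adjusted p of 0.0564 to 0.0989.

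Anxa1, an annexin of the response to inflammation, did not pass, with 0.18 (SE 0.098) and an interval of -0.032 to 0.39, at 53.3 ± 6.14 CPM in the controls. Ptgs2, which encodes the inducible cyclooxygenase, was at 0.083 to 0.582 CPM, 3 to 18 counts per library, and was not fitted. Over a fold of 1.5 as well as the adjusted p, 5 members were called higher, Sytl2, Nt5e, Ankrd1, Ccn1 and Ccn2, and 0 lower, while 4.01% of all genes were called higher and 2.72% lower. The groups did not overlap in 9 members that were higher in cKO and 3 that were lower, where the shares of all genes were 8.16% and 8.58%. The median log2 fold change was 0.11 over the 30 members and 0.0094 over all genes.

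**Figure D2:**
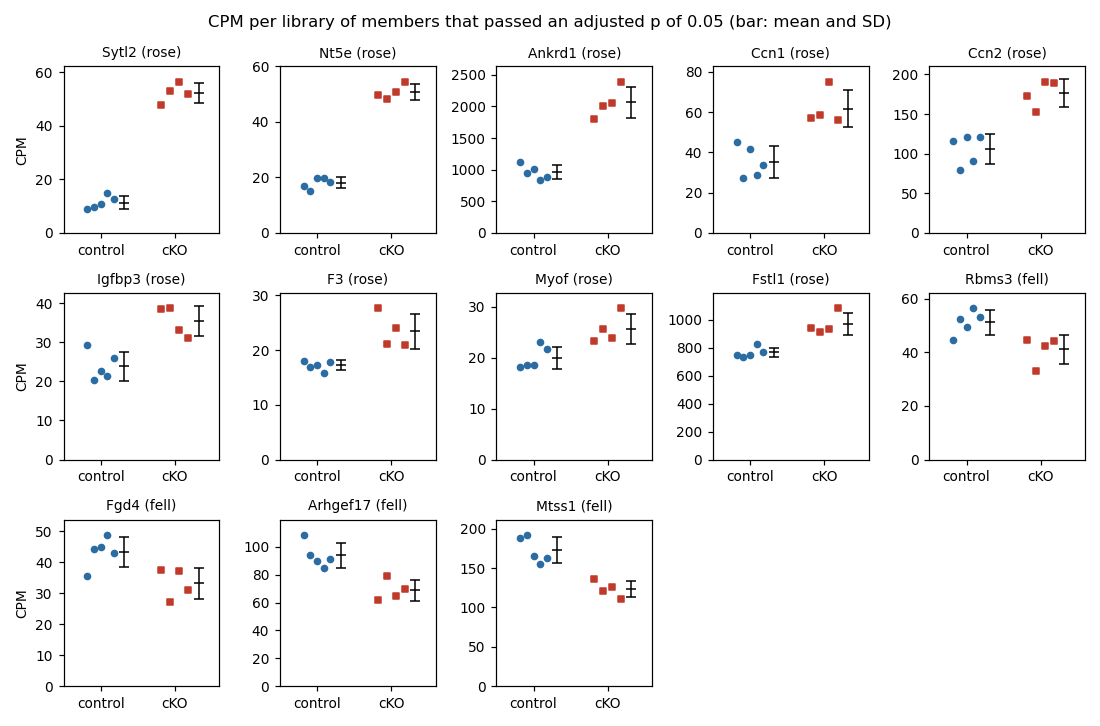
CPM of the 13 members that passed an adjusted p of 0.05, on axes that start at 0 (controls in blue circles, n = 5, and cKO in red squares, n = 4, in replicate order from left to right, with mean and SD as a bar beside each group). The groups overlap only for Rbms3 and Fgd4, and cKO replicate 3 stands out for Ccn1.

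Per length of exon, the members of the control ventricle spanned from 332.6 RPKM for Ankrd1 to 0.034 for Foxf2. Ankrd1, Fstl1 at 156.0 ± 7.11 and Flna at 67.1 ± 4.93 stood in that order without overlap between the control libraries. Next came Ccn2 at 37.0 ± 6.74, Axl at 30.4 ± 1.43 and Ccdc80 at 29.0 ± 1.45, neighbours whose ranges overlap. From Arhgap29 at 22.1 ± 2.41 down to Amotl1 at 13.6 ± 1.11 stood 8 genes, each overlapping the next, with Lhfp, Anxa1, Ccn1, Mtss1, Tgfbr2 and Amotl2 between them. A gap followed, and Arhgef17 at 8.69 ± 0.831 led a run of 9 that ended with Ptpn14 at 4.07 ± 0.451.

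Lower still, Fgd4, Nt5e, Myof and Nuak2 lay at 2.47 to 1.49 RPKM and Sytl2, Dock5 and Fjx1 at 0.813 to 0.623. The members that rose were found along the whole order, from rank 1 to rank 28. In cKO (n = 4), Sytl2 reached 3.75 ± 0.262 RPKM and Nt5e 5.90 ± 0.319. The members were more abundant than most genes, at a median of 52.3 CPM in the controls against 19.3 over all genes fitted, and their median control CV was 10.9% against 11.2%.

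**Figure D3:**
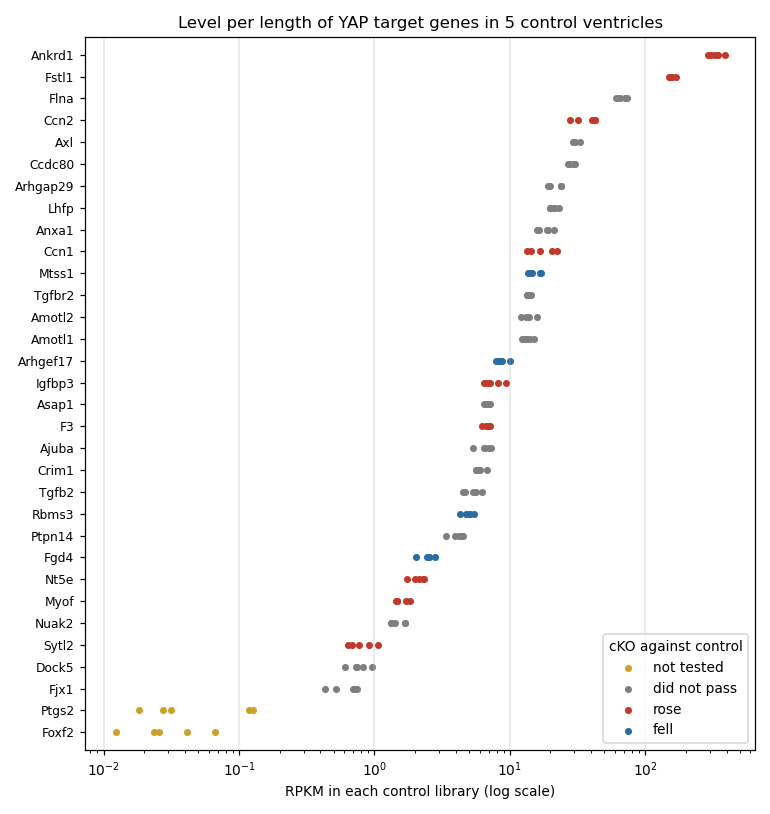
RPKM of all 32 members in the 5 control libraries, each point a library, on a log axis, ordered by mean and coloured by what the member did in cKO. Red points (rose) stand at both ends of the order, with Ankrd1 at 332.6 and Sytl2 at 0.813 RPKM, and Ptgs2 and Foxf2 (not fitted) lie apart at the bottom.

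The set of libraries was not used to choose the members, and with genotype in the same fit it could be tested. At an adjusted p under 0.05, 3 of the 30 members differed between the sets, against 4.81% of all genes. Tgfb2 was higher in the Rps3a3-high set by 0.34 (SE 0.075, adjusted p = 0.0272) and Anxa1 by 0.29 (SE 0.061, adjusted p = 0.0247), and Mtss1 was lower there, at -0.23 (SE 0.053, adjusted p = 0.0344). In Tgfb2 and Anxa1, control replicates 1 and 2 were the lowest controls and cKO replicate 4 the highest cKO library. In Mtss1 control replicates 1 and 2 were the highest controls and cKO replicate 4 the lowest cKO library. None of the 30 passed the set term without control replicate 2 or without cKO replicate 4, the only cKO library of its set. Among markers, 4 of 7 macrophage genes, 2 of 8 endothelial genes (Cldn5 and Egfl7) and 1 of 8 cardiomyocyte genes (Tnni3) passed the set term, all lower in the Rps3a3-high set, and their part in these results was not tested.

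With the set as a term, Tgfb2 and Anxa1 also passed for genotype, at 0.31 and 0.28, as did Axl at -0.21, while Fgd4 and Rbms3 no longer did, at -0.36 and -0.27 (adjusted p of 0.064 and 0.0762). Within the sets, the differences of the members that passed are a description, since those members passed in a fit of the same 9 libraries. The Rps3a3-high set holds a single cKO library, so its differences carry no error of their own. Ankrd1 differed by 0.92 on the scale log2(CPM + 0.5) in the low set and by 1.398 in the high set, and Sytl2 by 2.44 and 1.99. The low set alone, with 3 cKO and 2 control libraries, left 5 members that rose. Ccn1, Igfbp3, F3 and Myof were not among them, at 0.41 to 0.82 and adjusted p between 0.0814 and 0.101. It left 2 members that fell, and Rbms3 was not among these, at -0.27 (adjusted p = 0.35 by the quasi-likelihood test). Fgd4 differed by -0.24 on the scale log2(CPM + 0.5) in the low set and by -0.54 in the high set.

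**Figure D4:**
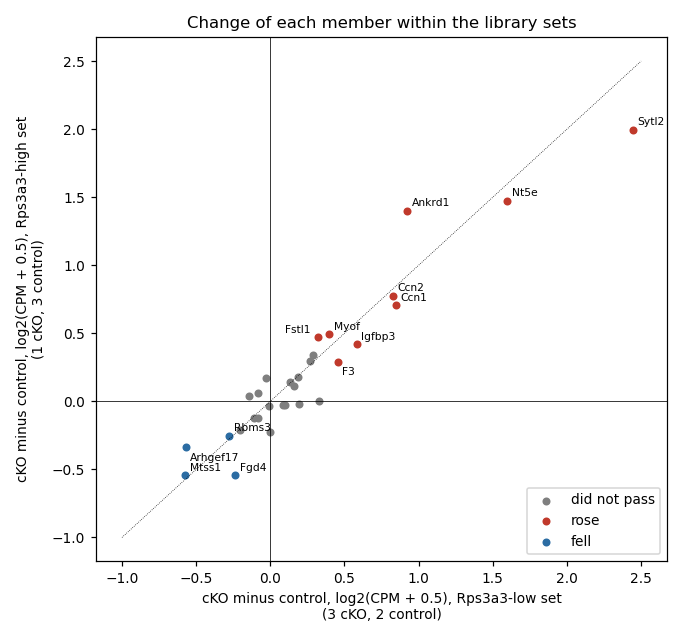
For each of the 30 fitted members, the difference of mean log2(CPM + 0.5), cKO minus control, within the Rps3a3-low set (x axis, 3 cKO and 2 control libraries) and the Rps3a3-high set (y axis, 1 cKO and 3 control libraries), with the line of equality dotted. Sytl2, at 2.44 and 1.99, lies farthest from 0, and Ankrd1, at 0.92 and 1.398, lies above the line of equality.

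Of 8 fitted genes for YAP, TAZ, the TEAD factors and their Vestigial-like partners, 1 rose and 1 fell, with a median of 0.012. Over all genes fitted, 8.25% rose and 8.03% fell. Yap1 was measured at 114.1, 119.8, 115.6, 119.5 and 122.3 CPM in the controls and at 133.1, 131.9, 140.5 and 128.8 CPM in the cKO libraries, so that all cKO values lay above all controls by a small step, at 0.18 (SE 0.051, adjusted p = 0.0365). It passed in 0 of the 9 fits that each dropped a library, at 0.15 to 0.19 and adjusted p of 0.0532 to 0.117. Tead2 fell by 0.33 (SE 0.084, adjusted p = 0.0195), from 36.8 ± 3.09 to 29.3 ± 2.74 CPM. Without cKO replicate 3 Tead2 did not pass, at -0.31 (adjusted p = 0.0637). Wwtr1, which encodes TAZ, was at 143.7 ± 7.30 and 143.6 ± 12.03 CPM, and Tead1 at 70.7 ± 14.8 and 86.7 ± 7.22, with an adjusted p of 0.995 and 0.170.

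Of 18 genes of the Hippo kinases and their upstream regulators 1 rose, with a median of -0.0031, where 8.25% of all genes rose. The gene that rose was Wwc2, a scaffold that activates the LATS kinases, at 0.30 (SE 0.067, adjusted p = 0.00914). Of a further 6 genes known as YAP targets 3 rose and 1 fell, with a median of 0.40. Lats2, at -0.15, did not pass and is counted both here and among the 18 Hippo genes. Areg, an epidermal growth factor receptor ligand, rose by 2.33 (SE 0.55, adjusted p = 0.0126) though it stayed under 1 CPM in every library and the groups overlapped. Myc rose by 0.61 (SE 0.14, adjusted p = 0.0109), and Gadd45a, a growth arrest gene, fell by 0.68 (SE 0.11, adjusted p = 0.00177), with no overlap between the groups. Thbs1, which encodes the matricellular protein thrombospondin 1, rose by 0.47 (SE 0.11, adjusted p = 0.0126 by the quasi-likelihood test), with control values of 84.0, 64.4, 69.9, 68.5 and 81.7 CPM and cKO values of 97.4, 83.2, 106.1 and 120.2 CPM, the lowest cKO library lying under the highest control.

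Of the genes that the text of the study names as known or possible YAP targets in these same samples, 3 listed here are not members. The study counts Igf1r as a known target and proposes Fgf7 and Acta2 as potential direct ones. All 3 rose, and they are no independent evidence of a direction. Fgf7, a fibroblast growth factor, was measured at 0.391, 0.463, 0.305, 0.818 and 0.614 CPM in the controls and 9.61, 8.03, 12.1 and 9.35 CPM in the cKO libraries, a rise of 4.24 (SE 0.24) with every cKO library far above every control. Acta2, the smooth muscle actin, went from 661.1 ± 133.2 to 2834 ± 558.8 CPM, and Igf1r, the receptor of insulin-like growth factors, from 18.4 ± 1.45 to 36.5 ± 3.32 CPM, with 0.99 (SE 0.085). SRF, a factor that shares actin-related targets with YAP, had 6 of 14 listed targets rise and none fall, with a median of 0.49. Those with the largest rise were Cnn1 at 2.78 (SE 0.22), Acta2 at 2.10 (SE 0.16), Myl9 at 1.58 (SE 0.25) and Egr1 at 1.17 (SE 0.27), at adjusted p between 1.15e-05 and 0.0184.

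**Figure D5:**
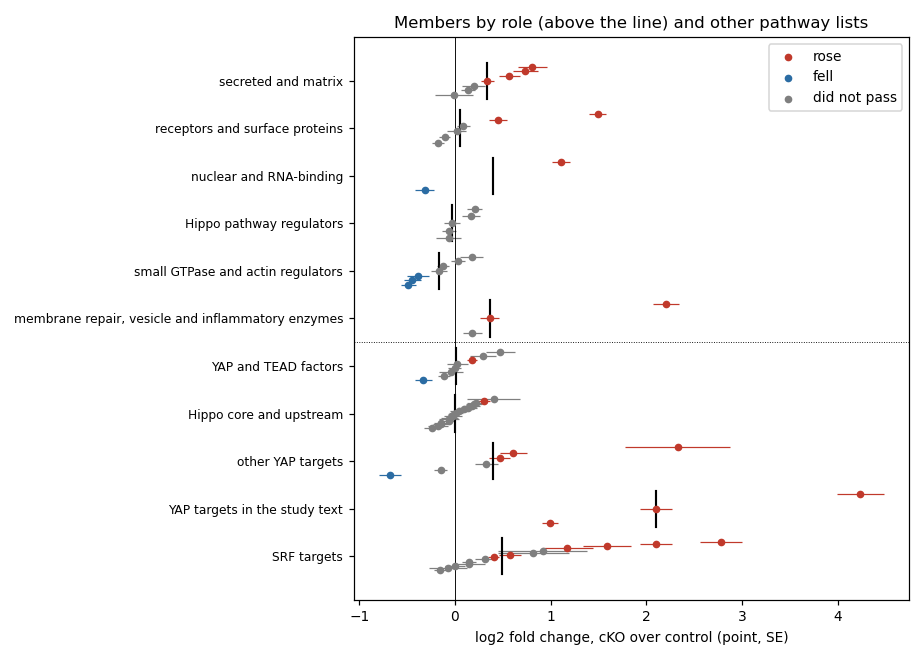
Log2 fold change of cKO over control with its SE for each fitted gene, by role of the member (above the dotted line) and for the other lists (below it), with the median of a row as a black bar. The medians of the Hippo pathway regulators (-0.029), the YAP and TEAD factors (0.012) and the Hippo core (-0.0031) lie close to 0, and the falls among members lie in the rows of small GTPase and actin regulators and of nuclear and RNA-binding genes.

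Markers of the cells in the ventricle were summed per library, and their part in the changes of the YAP targets was not tested. Cardiomyocyte markers summed to 54080 to 61920 CPM in the controls and 48250 to 51540 in cKO, with 2 of 8 (Myl2 and Pln) falling. Fibroblast markers summed to 5855 to 7220 and 6973 to 8330 CPM, with 3 of 8 (Col1a1, Col1a2 and Tcf21) rising at 0.40 to 0.52. The other 5 did not pass: Col3a1 at 0.14, Pdgfra at 0.11, Lum at 0.06, Dcn at -0.045 and Dpt at -0.26. Collagens made up most of the sum, with control means of 999.5 CPM for Col1a1, 1154 for Col1a2 and 3189 for Col3a1. With a library dropped, Col1a1 did not pass in the 5 fits lacking control replicate 3 or 5 or cKO replicate 1, 2 or 3, at 0.38 to 0.55 and adjusted p of 0.0529 to 0.0946. Tcf21 did not pass without control replicate 3, at 0.44 (adjusted p = 0.0504), and Col1a2 passed in all 9. Endothelial markers summed to 1608 to 1741 and 1537 to 1687 CPM, with 1 of 8 (Tek) falling, and mural markers to 1841 to 1944 and 1831 to 2157, with 0 of 7 passing. Macrophage markers summed to 106.5 to 176.6 and 128.3 to 232.0 CPM, with 0 of 7 passing. Epicardial markers summed to 22.7 to 75.9 and 21.1 to 32.7 CPM, with 1 of 5 (Wt1) falling. Atrial markers summed to 60.5 to 137.4 and 126.6 to 190.0 CPM, with 1 of 3 fitted (Myl7) rising, at 1.20. Sln was at -1.25 (adjusted p = 0.262) and Myl4 at 0.17 (adjusted p = 0.71), neither passing, and Bmp10 was too low to be fitted. Sln ranged from -2.31 to -0.90 over the fits with a library dropped, and passed in 1 of the 9. None of the markers was at 0 in every library.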

How the data were processed

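Ventricular RNA of mice at postnatal day 7 was sequenced as 9 libraries, 5 control and 4 cKO of separate samples, each assigned by its own label. The study's methods call replicates biological, and its legend counts the samples as hearts. The deposited values are raw read counts per gene in 1 table. The authors made them from poly(A) libraries of a stranded kit, sequenced as single-end reads and mapped to mm10, and the submitters' processing notes name STAR 2.4.2a and HTSeq 0.6.1. Which annotation and strand setting the counting used is not given in the sources used here. The study's methods and legend give unequal numbers of controls, and all 5 were used.

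Symbols, positions and summed exon lengths came from GENCODE M21 on GRCm38 for 36429 of 38293 identifiers, which hold 99.82% of the counts. Genes passing filterByExpr (minimum count 10) were scaled by TMM and tested in R 4.3.3 with the two-sided quasi-likelihood F test of edgeR 4.0.16, genotype being the only term, with Benjamini-Hochberg adjustment over all 15318 genes. The script was tested on simulated counts. "Rose" and "fell" mean an adjusted p under 0.05, and "called" a fold over 1.5 besides, the thresholds that the study used with DESeq2. The SE was derived from the F statistic of each log2 fold change, and the 95% interval from that SE. The library sets were divided at 10 CPM of Rps3a3, and the set term was tested in a fit with genotype. CPM are counts over TMM-scaled totals, and RPKM are CPM per kilobase of summed exons.

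The members and all gene lists were chosen with earlier results of these data known. Every member is named, and from each other pathway list up to 4 genes past the threshold by size of change, with Yap1, Wwtr1 and Tead1 always. Lats2, Fos, Junb and Vgll2 are named besides. A gene dropped from the list of further YAP targets, and from its counts, for a reason unrelated to its values, is not reported here. Promoter sequences are RefSeq's. Alternatives were DESeq2 1.42.0, RLE and upper-quartile scaling, the replicate number as a block, the library set as a term, dropping the filter or setting it to a mean of 1 CPM, the Rps3a3-low libraries alone, leaving out each library and a promoter window of the 250 bases before the start.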

Additional observations from a re-analysis of the deposited data

Results flagged for a closer look

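A library stood apart from its group where its gap to the nearest library of its group, on the scale log2(CPM + 0.5), took up more of the group's range than Dixon's test allows at its 95% level. Of 62 groups of libraries tested over the fitted members and Arid1a, 5 held such a library, and chance gives about 1 in 20. Ccn1 in cKO replicate 3, at 75.2 CPM, was the highest, with 0.868 of the range. Axl in control replicate 2, at 165.5 CPM, was the highest, with 0.719. The other 3 were the lowest values of cKO replicate 2. They were Arhgap29 at 152.7 CPM, with 0.959 of the range, Asap1 at 43.6 CPM, with 0.857, and Rbms3 at 33.2 CPM, with 0.832. Without that library Arhgap29 was at -0.11, Asap1 at -0.092 and Rbms3 at -0.23 on the log2 scale, and none of these 3 passed. That library was the lowest of its group for 11 of the 30 fitted members, and control replicate 2 was the lowest for 14. The share of all genes lowest in either library was not computed, so these counts cannot be read as a trait of the members.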

How the results depend on the processing

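Of 240 log2 fold changes recomputed for the 30 fitted members under the alternatives that keep all 9 libraries or the Rps3a3-low set, 214 kept their direction and their side of the threshold, 11 changed direction, 11 no longer passed and 4 newly passed. All 11 that changed direction belonged to members that did not pass: Fjx1 was at 0.076 with the replicate block, 0.027 with the library set as a term, 0.077 in the Rps3a3-low libraries alone, 0.0059 with upper-quartile scaling and 0.0008 with the filter at 1 CPM. With the set as a term Crim1 was at -0.017 and Ptpn14 at 0.0497, and in the Rps3a3-low libraries alone Crim1 was at -0.068, Ptpn14 at 0.098 and Flna at -0.031. The cause was not tested. Leaving out each library in turn reversed 11 of 270 values and spanned -0.11 to 0.062 for Fjx1, -0.0801 to 0.10 for Crim1, -0.091 to 0.0093 for Ptpn14, -0.11 to 0.016 for Nuak2 and -0.016 to 0.0701 for Flna. It gave 2 to 5 members that fell, against 4, and 8 or 9 that rose. The count of falls was 2 when control replicate 2, 3, 4 or 5 or cKO replicate 2 or 4 was left out. The promoter window without the 50 bases after the start held a match for 9 member genes, against 10, and for 33.3% of member promoters and 12.6% of all.

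Both groups carry replicate numbers. Between libraries of the same number, deviations from the group means correlated at 0.023, 0.036, 0.011 and 0.232 for replicates 1 to 4. Unlike-numbered libraries were not compared as a reference, so these values cannot decide whether the numbers are pairs. Both replicates 4 lie in the Rps3a3-high set, and both replicates 1 and both replicates 2 in the Rps3a3-low set. In a fit with the replicate number as a block, control replicate 5 says nothing of genotype. With the replicate block 888 genes were called, against 1030 without it, and 9 members rose and 2 fell, with Fgd4 at -0.39 (adjusted p = 0.105), Rbms3 at -0.30 (adjusted p = 0.115) and Ptpn14 at 0.0023. The Rps3a3-low libraries alone, with 5 of the 9, called 620 genes, and 5 members rose and 2 fell. For the library set, a fit without genotype passed 252 genes and 0 members, against 737 and 3, and leaving out a library gave 142 to 1540 genes and 0 to 4 members, the most without cKO replicate 1, the fewest genes without control replicate 2, and no member without that library or cKO replicate 4. Foxf2, Ptgs2 and Fjx1 held the fewest counts of the members, at most 81 in a library, and whether depth limits their comparison was not tested.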

Other observations

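Among the controls, a group of members shared its low libraries. Control replicates 2 and 4 held the lowest values of Ccn1, Ccn2, Igfbp3, Fjx1, F3 and Ajuba, 6 of 30 fitted members (20.0%), and of 6.1% of all genes fitted. This count was chosen after the values were seen and has no test. The pair of control replicates 1 and 2, which share the Rps3a3-low set, was lowest for 8 members (26.7%) and for 23.1% of all genes. Egr1, an immediate-early gene and SRF target, was lowest in control replicates 4 and 2 as well, at 20.8 and 24.9 CPM, against 26.2 to 40.9 CPM in the other controls. The other immediate-early genes of the SRF list, Fos and Junb, were lowest in control replicates 4 and 5 instead.

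Some members lie close to each other. F3, which rose, and Arhgap29, which did not pass, lie 217492 bases apart on chromosome 3, and Tgfbr2 and Rbms3 lie 397385 bases apart on chromosome 9. Vgll2, a TEAD partner too low to be fitted, was at 0 in every control and at a mean of 0.283 ± 0.121 CPM (SD, n = 4) in cKO.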
